A study of Rattus norvegicus with 48 samples.

Results

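The miR-181 family was followed in liver small RNA from 48 male Sprague-Dawley rats, 3 in each of 16 dose and time groups. Rats received thioacetamide (TAA), a hepatotoxicant and liver carcinogen in rodents, daily at 4.5 mg/kg (low dose), 15 mg/kg (middle dose) or 45 mg/kg (high dose), or vehicle alone at 0 mg/kg, for 3, 7, 14 or 28 days, written 3-d and so on. All groups shared strain and sex and no group carried a modified allele. The age of the rats is not given in the sources used here. Members were the mature miRNAs whose names start with miR-181a-, miR-181b-, miR-181c- or miR-181d-, which gave 10 strands of the 764 mature miRNAs listed. Of these, 4 are guide strands, the strand of the hairpin that is mostly kept, and 6 are passenger strands from the opposite arm. The 4 guide strands and 3 passenger strands were among the 301 miRNAs that reached 5 RPM (reads scaled to a common library total) in at least 3 libraries and were tested.

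A miRNA guides the silencing machinery to messenger RNAs that pair with its seed, bases 2 to 8. Because the miR-181 guide strands have 1 seed in common, they are grouped as a family and can pair with many of the same targets. The family is best known for tuning signalling thresholds in developing T cells, and in liver it has been studied as a TGF-β-responsive family and in relation to hepatic progenitor and carcinoma cells.

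The guide sequences are shown because the letters they share and the few that differ decide how far reads can be assigned to single members. They were taken from RefSeq (GRCr8), and capitals mark the seed.
rno-miR-181a-5p: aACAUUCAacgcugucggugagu
rno-miR-181b-5p: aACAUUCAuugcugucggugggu
rno-miR-181c-5p: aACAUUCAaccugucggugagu
rno-miR-181d-5p: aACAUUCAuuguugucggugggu
The seed ACAUUCA occurred in 4 of the 693 mature sequences of that table (0.577%), all of them members of the family. Counted from the 5′ end, miR-181d-5p differed from miR-181b-5p by C12U alone, and miR-181b-5p differed from miR-181a-5p by A9U, C10U and A21G. An edit distance of 1 separated miR-181c-5p, with 22 bases, from miR-181a-5p, with 23. How many mismatches the counting allowed is not given in the sources used here, so the split of reads between such neighbours is uncertain.

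The family comes from 3 pairs of hairpins, and the passenger strands, unlike the guides of miR-181a and miR-181b, tell these loci apart. Their seeds, again in capitals, are not that of the guides.
miR-181a-1-3p: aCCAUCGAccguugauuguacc
miR-181a-2-3p: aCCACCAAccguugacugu
miR-181c-3p: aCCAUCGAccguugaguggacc
In GRCr8, miR-181a-5p lies at chr13:52037081-52037103 (plus strand, hairpin Mir181a-1, beside Mir181b1 within a long non-coding RNA gene) and with the same letters at chr3:43025601-43025623 (plus strand, hairpin Mir181a2, beside Mir181b2 within the span of the protein-coding gene Nr6a1). On chromosome 19, miR-181c-5p lies at chr19:40888314-40888335 and miR-181d-5p at chr19:40888484-40888506, both on the plus strand and with no other gene annotated over their hairpins. The strands miR-181a-1-3p and miR-181c-3p shared a seed, found in no other sequence of the table, and differed by U16G and U19G.

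The libraries held 293331 to 14906217 counts each (median 10237542). The smallest, control 3-d replicate 1, stood apart from the others, the next smallest of which held 4829217 counts. Guide strands of the family made up 2.80% of its counts, against 0.359 to 0.829% (median 0.541%) in the other 47 libraries. Levels of single miRNAs are given here in upper quartile normalized RPM, and sums of markers in RPM without that normalization. In control 3-d replicate 1 miR-181a-5p stood at 22080, while the other 47 libraries were between 3100 and 8497. There miR-181c-5p reached 848, with the other libraries at 199 to 512, whereas miR-181d-5p, counted from 6 reads, was below all others at 16.9. The summed RPM of 3 red blood cell miRNAs (miR-451-5p, miR-486 and miR-144-3p) was 98039 in this library and 859 to 8757 in the others. The sum of 3 miRNAs abundant in hepatocytes (miR-122-5p, miR-192-5p and miR-194-5p) was 124341 there, and the lowest of the others was 221046. The part of these markers in its miR-181 level was not tested, and each result that rests on this library is given with and without it.

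Nearly all guide reads belonged to miR-181a-5p. Without control 3-d replicate 1 its share of the guide reads was 88.4 to 92.1% (median 90.3%), followed by miR-181c-5p with a median of 5.43%, miR-181b-5p with 3.50% and miR-181d-5p with 0.609%. By mean RPM miR-181a-5p ranked 23 of all miRNAs, miR-181c-5p 85, miR-181b-5p 107 and miR-181d-5p 178. Ligation and amplification favour some small RNAs over others, so levels are compared with more certainty between libraries than between strands. Of the passenger strands, miR-181a-1-3p had 29952 reads in all, miR-181a-2-3p 10274 and miR-181c-3p 6028. The other 3 did not reach 5 RPM in any library: miR-181b-1-3p had at most 33 reads in a library, miR-181b-2-3p at most 26, and miR-181d-3p at most 5 and no read in 31 libraries. They were not tested.

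With all 48 libraries the highest group mean of miR-181a-5p, 10907 ± 9677 (SD, n = 3), and of miR-181c-5p, 512 ± 294, was that of control 3-d, which holds the library that stood apart. Without that library control 3-d had 5321 and 344 (n = 2). The low dose groups of the first 3 time points then held the 3 highest means of miR-181a-5p and miR-181c-5p, as they did with and without it for miR-181d-5p, and for miR-181b-5p places 1, 2 and 4, with high dose 3-d at place 3. These groups were picked out after their levels were seen, so they are described without a test. For miR-181a-5p the 9 rats of these groups were between 6449 and 8497, and the 38 other rats, again without control 3-d replicate 1, had a median of 4708 and a highest value of 7387. Only 3 of the 38 were above the lowest of the 9. For miR-181c-5p the 9 rats were between 423 and 512 and the 38 others had a median of 284, with 2 of them above the lowest of the 9. The same 9 rats had 234 to 283 of miR-181b-5p and 41.9 to 53.6 of miR-181d-5p, against medians of 185 and 33.9 in the others, with 5 of the 38 above the lowest of the 9 for each. Without control 3-d replicate 1, the group means of miR-181a-5p ran from 7512 ± 892 (SD, n = 3) in low dose 14-d through 7187 ± 138 in low dose 3-d and 6872 ± 508 in low dose 7-d down to 3728 ± 722 in middle dose 28-d. The last place was held by middle dose 28-d for all 4 guide strands. When the 16 groups were ordered by mean without that library, the values of neighbouring groups overlapped in all 15 pairs for every guide strand, so the order itself is not resolved step by step.

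**Figure D1:**
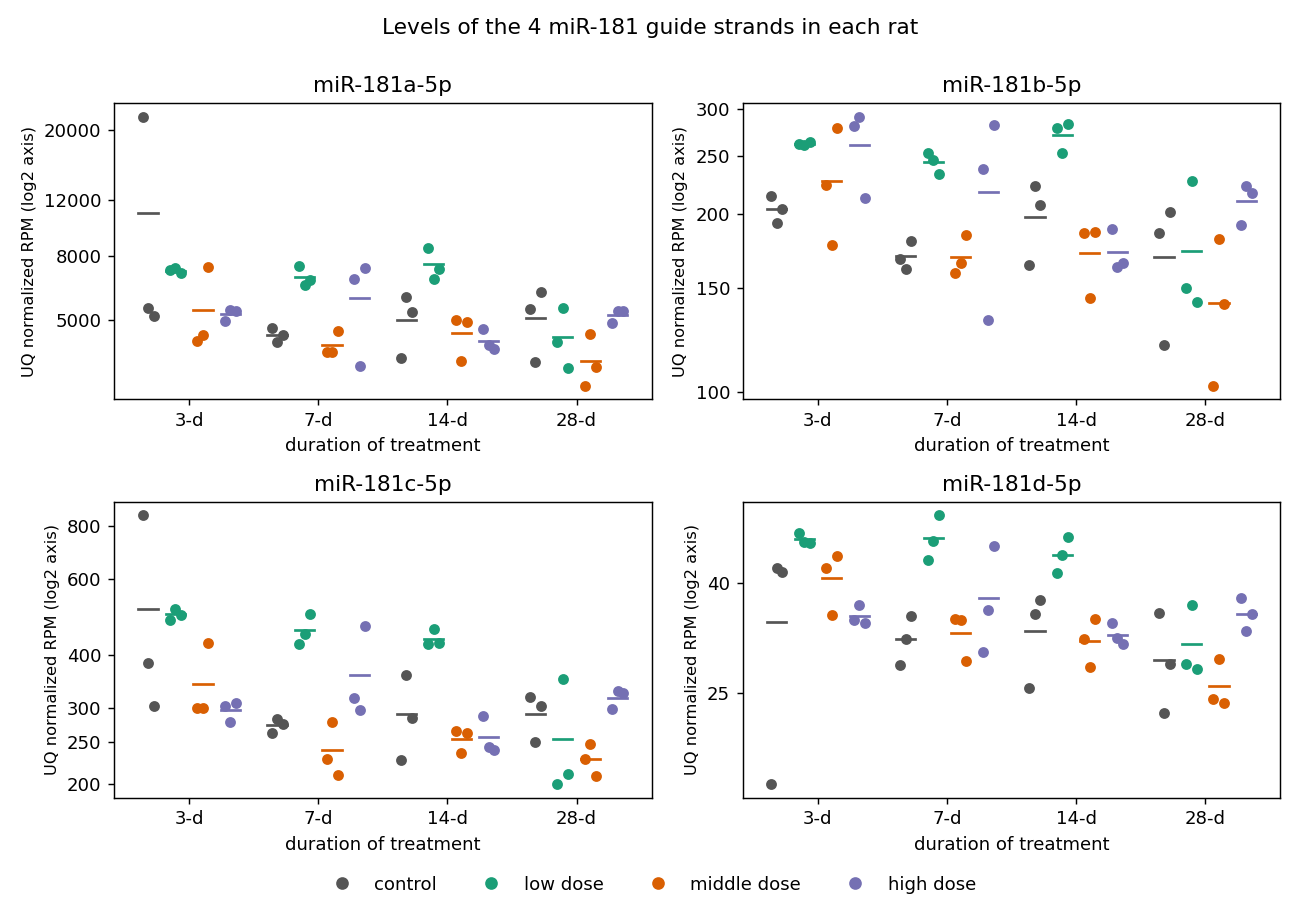
Level of each guide strand in every rat, in upper quartile (UQ) normalized RPM on a log2 axis, by duration of treatment and dose; points are rats and bars are group means of 3. The low dose groups of the first 3 time points lie high in each panel, and control 3-d replicate 1 lies at 22080 for miR-181a-5p, above all other rats, and at 16.9 for miR-181d-5p, below all others.

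Each condition was then set against its time-matched controls, which the 3 doses of a time point share. The p-values measure the spread between rats. A differentially expressed miRNA (DEM) had an unadjusted p below 0.05 in the quasi-likelihood F-test of edgeR and a fold change above 1.5. Over the 12 conditions the 4 guide strands were DEMs in 4 of 48 tests (8.33%), all 4 higher, while 18.1% of all 3612 tests gave a DEM and 12.1% gave a higher one. In 12 of the 48 tests (25%) treated and control values did not overlap, and this was so in 35.5% of all tests. The 4 calls fell into 2 conditions, low dose at 7-d and at 14-d.

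At low dose 7-d all 4 guide strands were above their controls in every rat. In the controls miR-181a-5p was at 4721, 4283 and 4484, and in the treated rats at 7435, 6449 and 6730. This was a log2 fold change of 0.61 (SE 0.09, edgeR adjusted p = 0.000997). For miR-181c-5p the controls were at 262, 282 and 276 and the treated rats at 424, 448 and 499, a log2 fold change of 0.74 (SE 0.10, edgeR adjusted p = 0.00071), the largest of the 4. The least abundant guide, miR-181d-5p, was at 28.2, 31.5 and 34.7 in the controls and at 44.1, 48 and 53.6 in the treated rats, a log2 fold change of 0.62 (SE 0.14, edgeR adjusted p = 0.00694). None of these groups overlapped. By contrast miR-181b-5p, with a log2 fold change of 0.53, passed the p-value (edgeR adjusted p = 0.00338) but not the fold of a DEM, and its controls, at 161 to 180, did not overlap the treated rats, at 234 to 253. In this condition 28.9% of all miRNAs were DEMs, the values of 53.2% did not overlap, and the median log2 fold change of all was 0.02, while the 4 guides had a median of 0.62. Without control 7-d replicate 5 the value of miR-181a-5p was 0.58 and without low dose 7-d replicate 46 it was 0.55, both under the fold of a DEM. For miR-181d-5p this was so without control 7-d replicate 4 (0.55) and without low dose 7-d replicate 48 (0.55).

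At low dose 14-d the 4 guide strands were again above their controls in every rat, with log2 fold changes of 0.46 to 0.59. Here 1 of them was a DEM, miR-181c-5p, at 227, 359 and 285 in the controls and at 423, 459 and 427 in the treated rats (log2 fold change 0.59, SE 0.18, edgeR adjusted p = 0.0228). The groups did not overlap, and the controls were spread more widely than the treated rats. Its fold lay at the edge of the threshold, and the call was lost without control 14-d replicate 13 (0.44), control 14-d replicate 15 (0.58) or low dose 14-d replicate 41 (0.55). For miR-181a-5p the controls were at 3809, 5922 and 5306 and the treated rats at 8497, 6758 and 7282. Its log2 fold change of 0.58 (SE 0.16, edgeR adjusted p = 0.0153) missed the fold by a small margin, and without control 14-d replicate 14 it was 0.72, without control 14-d replicate 15 it was 0.63, without low dose 14-d replicate 41 it was 0.65 and without low dose 14-d replicate 42 it was 0.61, each then a DEM. Among all miRNAs 32.6% were DEMs here and 50.2% had no overlap. The median log2 fold change of all miRNAs was 0.11 with upper quartile normalization and −0.06 with TMM normalization, under which the 4 guides were at 0.30 to 0.43.

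Cell type markers also differed from the controls in the same low dose groups. At 7-d the summed RPM of the 3 hepatocyte miRNAs was 290728 to 318113 against 221131 to 242511 in the controls, and the sum of 5 leukocyte miRNAs was 1839 to 2563 against 3111 to 3720. The sum of 5 epithelial or bile duct miRNAs was 355 to 484 against 1059 to 1072. At 14-d the hepatocyte sum was 297491 to 311492 against 230896 to 244494 and the leukocyte sum 2105 to 2458 against 3167 to 3861. The hepatocyte sum was wholly above its controls also where no guide strand was called. Among these were middle dose 28-d (276829 to 287441 against 221046 to 252084), the group with the lowest miR-181 means, high dose 7-d (251180 to 269771 against 221131 to 242511) and middle dose 14-d (245551 to 287223 against 230896 to 244494). These sums are RPM without upper quartile normalization. With that normalization the median log2 fold changes of the 3 miRNAs in these groups were −0.45, −0.11 and −0.07 in turn. At middle dose 28-d miR-122-5p was a lower DEM. Within these lists miR-122-5p, a hepatocyte miRNA, rose at low dose 7-d (log2 fold change 0.75) and 14-d (0.67). In the same 2 groups miR-150-5p, a lymphocyte miRNA, fell by 1.38 and by 0.74 on the log2 scale. Of the other leukocyte miRNAs, miR-223-3p, a myeloid miRNA, was lower at 7-d (−0.66) and 14-d (−0.60), while miR-155-5p, induced in activated leukocytes, was higher at 7-d (0.69), so that the list had 1 higher and 2 lower DEMs at 7-d. Both miR-223-3p and miR-155-5p were named after their values were seen. No member of any marker list was at 0 in every library. In bulk liver a different number of cells of a type and a different amount of RNA per cell cannot be told apart, and the part of these markers in the miR-181 result was not tested. The low dose rats of the first 3 time points also carry the running numbers 40 to 48 in the labels, which do not say what order the number follows.

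**Figure D2:**
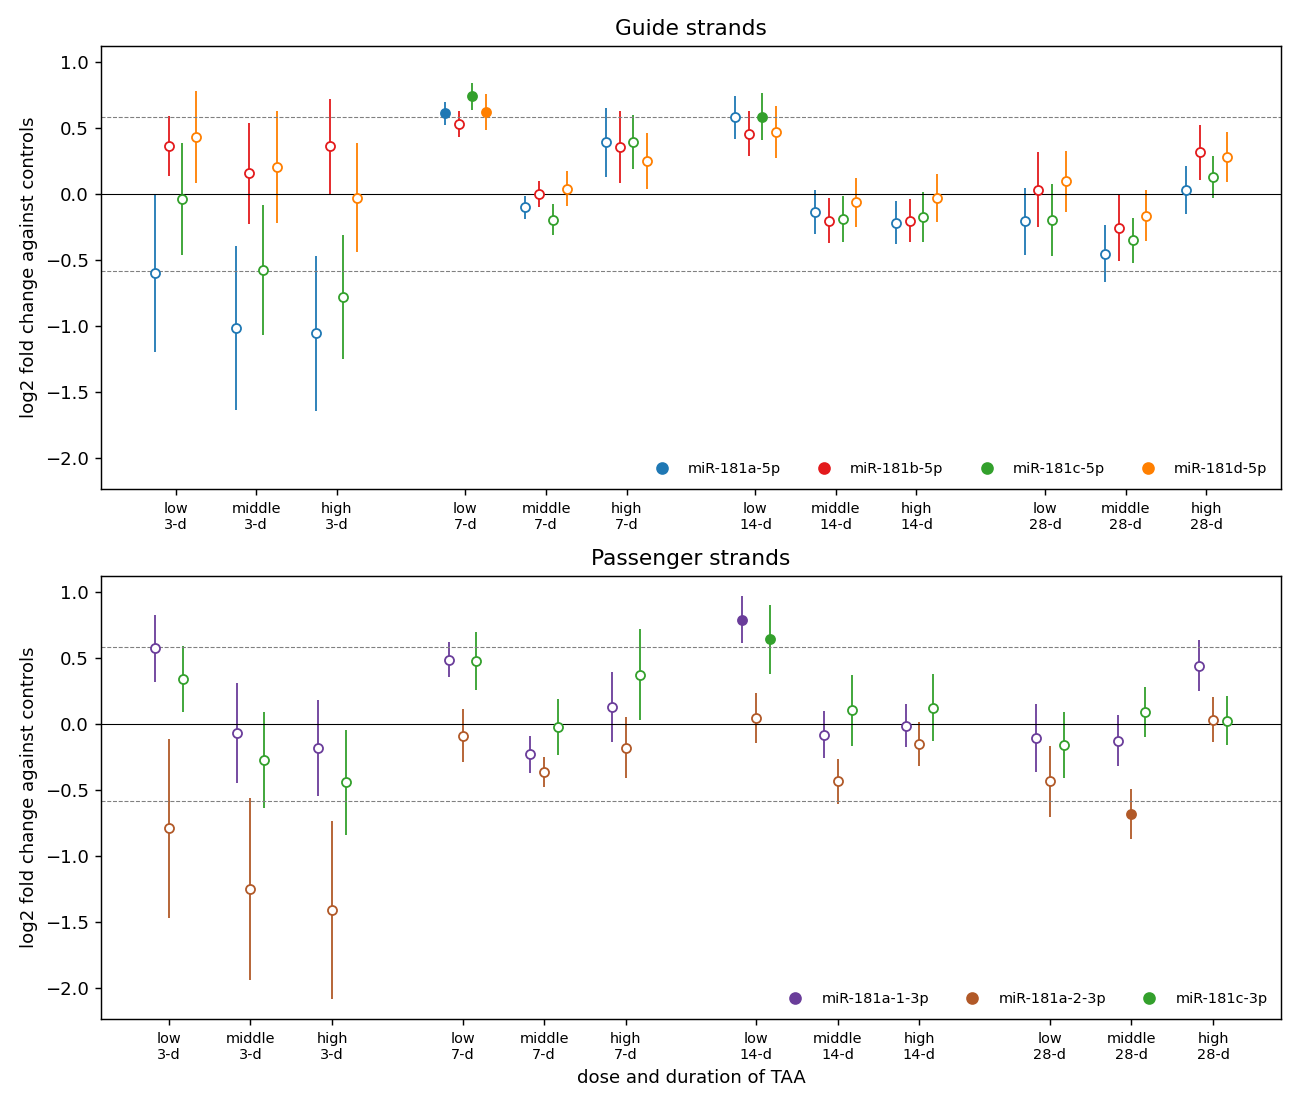
Log2 fold change of the tested miR-181 strands against the time-matched controls in the 12 conditions, guide strands above and passenger strands below; points are edgeR estimates, bars are 1 standard error, filled points are DEMs and dashed lines mark a fold change of 1.5. Filled guide points stand at low dose 7-d (0.61 for miR-181a-5p, 0.74 for miR-181c-5p and 0.62 for miR-181d-5p) and at low dose 14-d (0.59 for miR-181c-5p).

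In the 7 other conditions from 7-d to 28-d no guide strand was a DEM. The shares of all miRNAs called there were 15.9% at middle dose 7-d, 21.3% at high dose 7-d, 17.3% and 9.3% at middle and high dose 14-d, and 12.3%, 32.9% and 15.3% at the low, middle and high dose of 28-d. At middle dose 7-d their log2 fold changes were between −0.19 and 0.04, at middle dose 14-d between −0.20 and −0.06, and at high dose 14-d between −0.22 and −0.03, and with library size alone some of these values were above 0. High dose 7-d held 1 rat below the other 2, with miR-181a-5p at 6779, 3585 and 7332 beside controls at 4721, 4283 and 4484, and its 4 guides had log2 fold changes of 0.25 to 0.39 with overlapping values for 3 of the 4 (35.2% of all miRNAs did not overlap). Without high dose 7-d replicate 26, the lowest of these rats, miR-181a-5p was at 0.65 (edgeR adjusted p = 0.0138) and miR-181b-5p at 0.62 (adjusted p = 0.0364), both then DEMs. At 28-d the low dose groups no longer stood above the controls, with log2 fold changes of −0.21 to 0.10. Middle dose 28-d gave −0.45 for miR-181a-5p (SE 0.21, edgeR adjusted p = 0.123), with treated rats at 3100, 4517 and 3567 and controls at 5443, 3700 and 6164. These groups overlapped, and without control 28-d replicate 17 the value was −0.64 and without middle dose 28-d replicate 38 it was −0.61, each then a DEM. For miR-181b-5p and miR-181d-5p in that condition the sign depended on the scaling, with −0.26 and −0.16 by upper quartile and 0.04 and 0.13 by library size alone.

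The 3-d comparisons turned on 1 library. With all 3 controls, miR-181a-5p had log2 fold changes of −0.60, −1.01 and −1.06 at the low, middle and high dose, with edgeR adjusted p of 0.568, 0.856 and 0.432. Its controls were at 22080, 5466 and 5175, and its low dose rats at 7216, 7308 and 7037. Of the guides, miR-181b-5p and miR-181d-5p did not overlap their controls at the low dose (39.5% of all miRNAs), and all 4 overlapped at the middle (7.97%) and high dose (21.9%). Without control 3-d replicate 1 the same values were 0.43, 0.02 and −0.02. At low dose 3-d this gave miR-181a-5p an edgeR adjusted p of 0.0159 (SE 0.08), with 0.40 for miR-181b-5p (adjusted p = 0.0387) and 0.53 for miR-181c-5p (adjusted p = 0.0375). All 3 stayed under the fold of a DEM, and miR-181d-5p, at 0.19, did not pass (adjusted p = 0.316). The passenger miR-181a-1-3p was then the 1 member called, with 0.61 (SE 0.17, edgeR adjusted p = 0.0427), in a condition where 23.6% of all miRNAs were DEMs without that library and 16.6% with it. At the middle and high dose (2.99% and 11.3% of all miRNAs called with that library, 1.99% and 8.97% without it) no guide value without that library was beyond −0.29 or 0.40. The median log2 fold change of all miRNAs at the low, middle and high dose of 3-d was 0.11, 0.12 and 0.17 without that library. With all controls it was 0.16, 0.21 and 0.28.

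**Figure D3:**
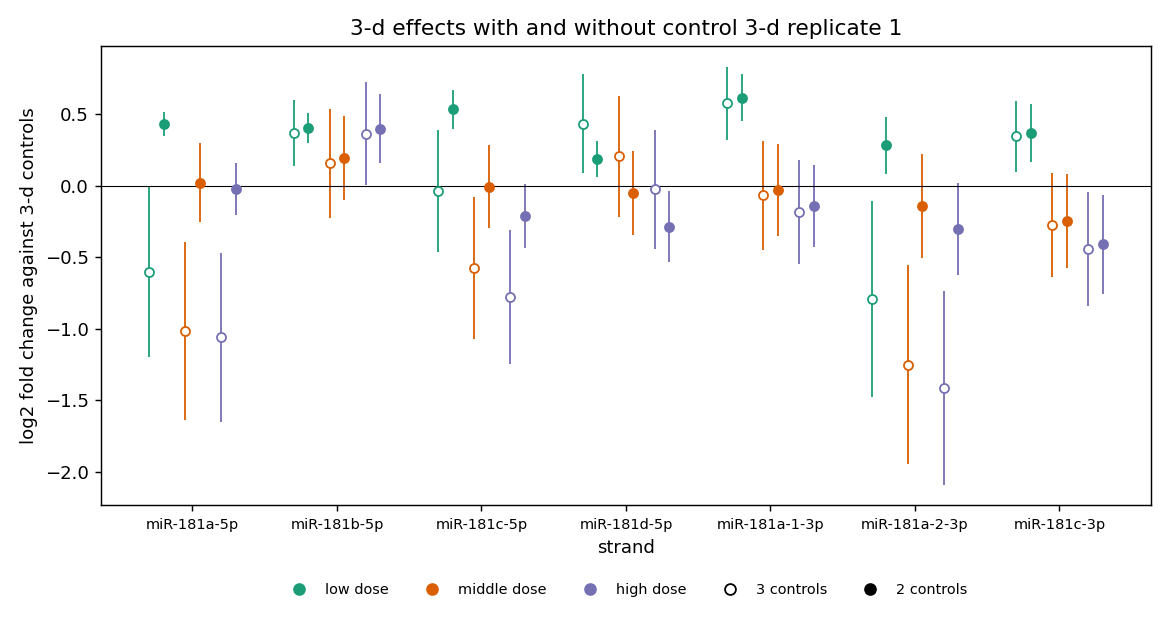
Log2 fold change of the tested strands against 3-d controls at each dose, with all 3 controls (open points) and without control 3-d replicate 1 (filled points); bars are 1 standard error. For miR-181a-5p the values move from −0.60, −1.01 and −1.06 to 0.43, 0.02 and −0.02, and for miR-181b-5p at low dose from 0.37 to 0.40.

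Doses were compared directly in 1 fit of all 48 libraries, in which the controls of a time point cancel. Of 48 dose differences of guide strands 8 passed an edgeR adjusted p of 0.05, and each was lower at the higher dose. In the 8 contrasts where no guide strand passed, the shares of all miRNAs passing were 0.332%, 2.66%, 5.32% and 10.6% for high against middle dose from the first to the last time point, 11.6% for middle against low dose at 3-d, 8.64% for high against low dose at 7-d, and 4.32% and 2.66% for middle and high against low dose at 28-d. At 14-d, where 23.3% of all miRNAs passed, the middle dose lay below the low dose by −0.66 (SE 0.22) for miR-181b-5p, −0.78 (SE 0.24) for miR-181c-5p and −0.53 (SE 0.19) for miR-181d-5p on the log2 scale, with edgeR adjusted p of 0.0264, 0.0169 and 0.0387. High against low dose at 14-d (19.3% of all miRNAs) gave −0.66 for miR-181b-5p and −0.76 for miR-181c-5p, with edgeR adjusted p of 0.0318 and 0.0221. At 7-d (28.9% of all miRNAs) middle against low dose gave −0.94 (SE 0.24, edgeR adjusted p = 0.00366) for miR-181c-5p and −0.58 (adjusted p = 0.0198) for miR-181d-5p. High against low dose at 3-d (13.6% of all miRNAs) gave −0.74 for miR-181c-5p (edgeR adjusted p = 0.0301). The middle against low difference of miR-181c-5p at 7-d passed under all 5 other scalings and filters, whereas 4 of the 5 differences at 14-d passed under none of them and the other one, miR-181c-5p at the middle dose, under 1. The direction was the same throughout.

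No guide strand passed for high against low dose at 7-d, with edgeR adjusted p of 0.202 to 0.712. For miR-181c-5p this difference was −0.35 with a 95% interval of −0.82 to 0.13, and for miR-181d-5p −0.37 with an interval of −0.76 to 0.01. High against middle dose at 7-d gave 0.59 for miR-181c-5p (95% interval 0.11 to 1.07, edgeR adjusted p = 0.215). Without control 3-d replicate 1, 16 dose differences of guide strands passed, 15 of them lower at the higher dose. The other was higher, miR-181d-5p for high against middle dose at 28-d (0.45, edgeR adjusted p = 0.0454, 21.3% of all miRNAs), where the 4 guides had 0.45 to 0.57. Under that fit all 4 guides passed for middle against low dose at 7-d (−0.94 to −0.53, with 38.2% of all miRNAs passing) and at 14-d (−0.78 to −0.53, 32.6%), and for high against low dose at 14-d (−0.80 to −0.50, 27.2%). For miR-181a-5p these values were −0.71, −0.72 and −0.80, with edgeR adjusted p of 0.00722, 0.00806 and 0.00453, and the SE of the first was 0.21 without that library and 0.32 with it.

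Averaged over the 3 doses, 1 of 16 guide tests passed in the 48-library edgeR fit, and 2 had an unadjusted p below 0.05, while 10.3%, 4.32% and 8.64% of all miRNAs passed at the 3 later time points in turn. The 1 was miR-181a-5p at 3-d, where 31.2% of all miRNAs passed, with −0.89 (SE 0.25, edgeR adjusted p = 0.00662). Without control 3-d replicate 1 the value turned to 0.14 (edgeR adjusted p = 0.742), and 1.33% of all miRNAs passed. The 4 differences that passed among the controls were miR-181a-5p and miR-181c-5p at 7-d against 3-d (−1.28 and −0.88, 10.3% of all miRNAs) and at 28-d against 3-d (−1.09 and −0.79, 39.5%). Without that library they were −0.24, −0.33, −0.06 and −0.24 and none passed, nor did any of the 301 miRNAs at 7-d against 3-d. At 28-d against 3-d miR-181d-5p then passed (−0.56, edgeR adjusted p = 0.0324, 18.6% of all miRNAs). Treatment effects at high dose differed between 7-d and 3-d for miR-181a-5p (1.45) and miR-181c-5p (1.16), where 6.64% of all miRNAs passed. These too rest on the 3-d controls, and without that library they were 0.41 and 0.61 and did not pass. None of the 301 miRNAs passed in that contrast without it. For the low dose, the effect at 28-d differed from that at 14-d by −0.79 to −0.37 on the log2 scale over the 4 guides, with edgeR adjusted p of 0.298 to 0.563 (0.332% of all miRNAs passed, and 5.32% for 28-d against 3-d, where no guide strand did either).

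Of the passenger strands, which are the arms usually degraded, 3 of 36 tests gave a DEM (8.33%, beside 18.1% of all tests), and in 10 of 36 (27.8%, beside 35.5%) the groups did not overlap. At low dose 14-d miR-181a-1-3p was at 49.5, 63.0 and 52.7 in the controls and at 104, 83.2 and 99.3 in the treated rats, a log2 fold change of 0.79 (SE 0.18, edgeR adjusted p = 0.0054), and the groups did not overlap. In the same condition miR-181c-3p had controls at 8.63, 14.9 and 8.5 and treated rats at 15.2, 15.3 and 19.4, also without overlap (log2 fold change 0.64, SE 0.26, edgeR adjusted p = 0.0675). That call was lost without control 14-d replicate 13 (0.51), control 14-d replicate 15 (0.50) or low dose 14-d replicate 42 (0.52). The third call was a decrease, of miR-181a-2-3p at middle dose 28-d (32.9% of all miRNAs), with controls at 21.1, 22.8 and 25.6 and treated rats at 12.3, 17.6 and 13.4 (log2 fold change −0.68, SE 0.19, edgeR adjusted p = 0.0204). Its groups did not overlap, and without middle dose 28-d replicate 37 the value was −0.58. At the middle dose the same strand was at 18.3 to 19.1 at 7-d beside controls at 23.5 to 24.5 (log2 fold change −0.36, edgeR adjusted p = 0.0447), and at 14-d at 18.2 to 18.8 beside 21.6 to 27.5 (−0.43, adjusted p = 0.0899). Neither pair of groups overlapped, as was so for 46.2% and 41.5% of all miRNAs in these conditions, and neither met the fold of a DEM.

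The 2 miR-181a hairpins give the same guide strand but different passenger strands, and the values of the passengers are therefore given side by side. In the low dose groups miR-181a-2-3p had log2 fold changes of −0.09 at 7-d and 0.05 at 14-d, where miR-181a-1-3p had 0.49 and 0.79. The ratio of their counts, which no scaling of libraries can alter, was 2.84 in the median of the 47 libraries without control 3-d replicate 1, and 0.634 in that library, from 26 and 41 reads. At 7-d the ratio was 2.08, 2.56 and 2.77 in the controls and 4.95, 3.00 and 3.67 in the low dose rats. At 14-d it was 2.29, 2.29 and 2.02 in the controls and 4.55, 2.99 and 3.69 in the low dose rats. Both low dose groups lay wholly above their controls. In 7 of 9 conditions after 3-d every treated rat was above every control, and in the other two, middle dose 7-d and high dose 14-d, the groups overlapped. At 3-d the low dose rats, at 3.40 to 4.31, were above the controls, at 2.75 to 3.06 without replicate 1, while the middle (2.77 to 4.18) and high dose rats (2.78 to 4.07) overlapped them with and without that library. At 28-d the controls were at 1.75 to 2.56, and the ratio was 2.64 to 3.02 at the low, 3.06 to 3.43 at the middle and 2.58 to 3.32 at the high dose. The 3 conditions of a time point share controls, and the ratio was examined after its values were seen, so these ranges are given without a test. Taken singly, 23.3 to 53.2% of all miRNAs did not overlap in the 9 conditions after 3-d, and no such share was worked out for ratios. In these 9 conditions miR-181a-5p over miR-181a-2-3p was wholly above its controls in 4. The ratio of miR-181a-5p over miR-181a-1-3p was wholly below its controls in 2.

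**Figure D4:**
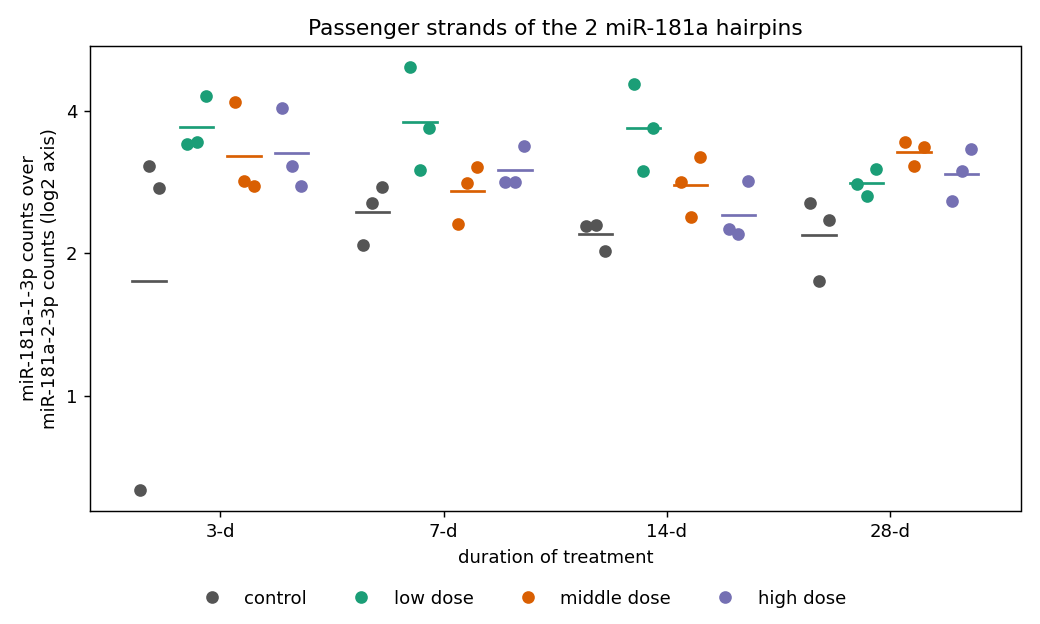
Counts of miR-181a-1-3p divided by those of miR-181a-2-3p in every rat, on a log2 axis, by duration of treatment and dose; points are rats and lines are geometric means of 3. At 7-d and 14-d the controls lie between 2.02 and 2.77 and the low dose rats between 2.99 and 4.95, and control 3-d replicate 1 lies at 0.634.

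Between miR-181d-5p and miR-181b-5p, the pair that differs by C12U, the count ratio was 0.122 to 0.270 (median 0.180) over the 47 libraries. The SD of its log2 within groups was 0.22, while counting error alone gives 0.08 at the median counts of 366 and 1973 reads. Treated and control rats overlapped for this ratio in all 9 conditions after 3-d. They also overlapped at all 3 doses of 3-d with all controls, which were at 0.0789 to 0.221. Without control 3-d replicate 1 the treated rats of 3-d were below the controls at all 3 doses, with only 2 controls left, at 0.206 and 0.221. The arms of the miR-181c hairpin stood at 25.9 guide reads to 1 passenger read in the median, with a range of 18.3 to 34.8.

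Across the 16 group means, on a scale of log2 (level + 1), miR-181a-5p and miR-181c-5p had a Pearson's r of 0.97 and miR-181b-5p and miR-181d-5p one of 0.88. For miR-181a-5p and miR-181d-5p, r was 0.68 with and 0.90 without control 3-d replicate 1. These are descriptions over 16 points that share libraries, scaling and, within a time point, controls. The miRNAs most like miR-181b-5p were let-7i-5p (0.92), let-7b-5p (0.90) and let-7d-5p (0.89), and those most like miR-181d-5p were let-7d-5p (0.91), let-7i-5p (0.91) and miR-98-5p (0.90), all of the let-7 family. For miR-181a-5p they were miR-194-3p (0.87), miR-378a-5p (0.86) and miR-378a-3p (0.82), and for miR-181c-5p miR-194-3p (0.87), miR-200a-5p (0.83) and miR-378a-3p (0.82). Without control 3-d replicate 1 these last lists were replaced in full, with miR-98-5p (0.94), let-7a-5p (0.90) and let-7i-5p (0.89) nearest to miR-181a-5p and miR-98-5p (0.90), miR-148a-5p (0.87) and miR-542-3p (0.87) nearest to miR-181c-5p. The first lists changed in part. Nearest to miR-181b-5p were then let-7i-5p (0.95), let-7d-5p (0.91) and miR-98-5p (0.90). Nearest to miR-181d-5p were let-7i-5p (0.88), let-7d-5p (0.88) and let-7a-5p (0.85).

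The miRNAs of the neighbouring cluster on chromosome 19, miR-23a-3p, miR-27a-3p and miR-24-3p, gave 2 DEMs in 36 tests (5.56%, beside 18.1% of all tests), miR-23a-3p once lower and miR-24-3p once higher. At low dose 7-d, where miR-181c-5p and miR-181d-5p rose, miR-23a-3p had −0.34, miR-27a-3p −0.33 and miR-24-3p 0.15. The strand miR-24-3p also comes from a second locus. Among 11 miRNAs linked to TGF-β signalling and fibrosis, 26 of 132 tests gave a DEM (19.7%, beside the same 18.1%), 11 higher and 15 lower. The most frequent, with 4 calls each, were miR-21-5p, a pro-fibrotic miRNA induced by TGF-β, miR-199a-5p and miR-214-3p, from a common cluster, and miR-145-5p and miR-29a-3p, of which the last targets collagen messenger RNAs. The fewest calls were those of miR-143-3p and miR-221-3p, with none by this rule and an unadjusted edgeR p below 0.05 in 4 and 2 conditions. At low dose 7-d and 14-d, where the miR-181 calls lay, 2 of the 11 were lower in each and none higher (28.9% and 32.6% of all miRNAs were called there), and miR-21-5p had log2 fold changes of 0.37 and 0.08 (edgeR adjusted p = 0.144 and 0.544).

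Over all conditions the hepatocyte list gave 2 higher and 1 lower DEM in 36 tests, all of miR-122-5p and none of miR-192-5p (−0.24 to 0.77) or miR-194-5p (−0.45 to 0.34), and the leukocyte list 4 and 6 in 60, with miR-150-5p lower in 4 conditions and miR-142-5p called in none (−0.44 to 0.86). The epithelial or bile duct list gave 5 and 8 in 60, with miR-200c-3p higher in 4 and miR-429 lower in 4, and miR-200a-3p and miR-141-3p called in 1 each. The red blood cell list gave 1 and 15 in 36, with miR-144-3p called most often, in 6 conditions, and miR-451-5p and miR-486 in 5 each. The stellate or smooth muscle pair gave 4 lower DEMs in 24, all of miR-145-5p and none of miR-143-3p. For the endothelial pair, miR-126a-3p and miR-126a-5p, the unadjusted p was below 0.05 in 3 conditions each and the log2 fold changes were between −0.54 and 0.84, but no test met both criteria of a DEM. Of the lists for organs that a liver sample should lack, 1 member each was tested, with miR-133a-3p (muscle) lower in 4 conditions, miR-9a-5p (brain) higher in 4, and miR-375-3p (pancreas) between −0.43 and 0.46 with an unadjusted p below 0.05 in 2. The other members of these lists, miR-1-3p, miR-206-3p, miR-216a-5p, miR-217-5p and miR-124-3p, were too low to test.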

How the data were processed

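The authors deposited raw counts per mature miRNA and precursor for each library. To make them they trimmed adaptors, kept reads of 18 to 25 bases and counted them with miRDeep2 against miRBase release 21; the submitters' processing notes name genome build rn5. Where 1 mature miRNA had several precursor rows, the row with the highest total was kept (for miR-181b-5p 95920 against 90722). Libraries are separate rats, and the replicate number is the running number in the labels. The count table held no column left unused. A count of 3, taken as the detection limit, is 10.2 RPM in the smallest library and 0.325 RPM in control 3-d replicate 2, for counting error only.

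Tests used edgeR 4.0.16 in R 4.3.3 with the quasi-likelihood F-test after upper quartile scaling, in 6 libraries per condition or in 1 fit of all 48, with Benjamini-Hochberg adjustment over the 301 miRNAs tested. Counts of members called are read against the share of all miRNAs called. With 3 rats against 3 an exact permutation test cannot give a p below 0.1 and was not used. Standard errors came from the fold change and the F statistic. On simulated low dose 7-d data with 301 miRNAs tested, 46 of 47 that changed 2-fold and all 38 that changed 4-fold were called, as were 18 of 216 unchanged. The simulated spread was the same for all miRNAs and no change under 2-fold was drawn. It therefore gives no rate for changes of the size seen in the guide strands. Alternatives were TMM, DESeq2 size factors, library size alone, 2 other filters, edgeR's exact test, DESeq2 1.42.0, adjusted p-values, pooled controls, the 48-library fit, the mean or sum of precursors, a pseudocount of 0.25 in place of 1 for correlations, and leaving out each library. Group levels without control 3-d replicate 1 were added after the data were seen. Named are all members, the 3 miRNAs most like each guide strand by Pearson's r, every member of lists of 3 or fewer, and the members of other lists with the most or fewest calls. The members and lists were chosen with earlier results of these data known. Python 3.11.15, pandas 2.3.3, numpy 2.4.6 and matplotlib 3.10.9 were used for tables and plots.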

Additional observations from a re-analysis of the deposited data

Results flagged for a closer look

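Treatment effects that differed between doses or times by an adjusted p below 0.05 in the 48-library edgeR fit are listed on the log2 scale, with no explanation. For miR-181b-5p these were high against low dose (−0.66) and middle against low dose (−0.66) at 14-d. For miR-181c-5p they were high against low dose at 3-d (−0.74), middle against low dose at 7-d (−0.94), and at 14-d high (−0.76) and middle (−0.78) against low dose. For miR-181d-5p they were middle against low dose at 7-d (−0.58) and 14-d (−0.53). Among passenger strands, miR-181a-1-3p differed for high (−0.76) and middle (−0.64) against low dose at 3-d, for middle against low dose at 7-d (−0.72), and for high (−0.81) and middle (−0.87) against low dose at 14-d. For miR-181c-3p the difference was high against low dose at 3-d (−0.78). Between times, the high dose effect at 7-d exceeded that at 3-d for miR-181a-5p (1.45) and miR-181c-5p (1.16). Neither passed without control 3-d replicate 1 (0.41 and 0.61), where none of the 301 miRNAs did. The groups hold 3 rats, too few for a check of outlying samples within a group. Control 3-d replicate 1 was set apart by comparison with the other 47 libraries.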

How the results depend on the processing

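Counts of calls moved with scaling, filter and test. The 4 guide calls became 1 with DESeq2's size factors and 1 with library size alone, miR-181c-5p at low dose 7-d in both. The DESeq2 Wald test gave 2, that call and a lower one of miR-181a-5p at high dose 3-d (−1.51, DESeq2 adjusted p = 0.241). All 12 controls pooled gave 2, both of miR-181d-5p, at low dose 3-d and 7-d. The single fit of 48 libraries gave 6, of which 3 were lower at 3-d. These were miR-181a-5p at middle (−1.01) and high dose (−1.06) and miR-181c-5p at high dose (−0.76). With each condition fitted on its own and without control 3-d replicate 1, they were 0.02, −0.02 and −0.21. Leaving out each library gave 3 to 6 guide calls. The 3 passenger calls became 1 with library size alone and 2 to 5 when each library was left out. By edgeR with at least 5 RPM in every library there were 0 (6 at an unadjusted p below 0.05, and 4 by DESeq2 with the usual filter). With no filter there were 5, of miR-181a-2-3p at middle dose 28-d and high dose 3-d and of the 3 strands otherwise not tested. The single fit of 48 libraries also gave 5, with miR-181a-2-3p lower at middle (−1.06) and high dose 3-d (−1.22). With each condition fitted on its own and without control 3-d replicate 1, these 2 values were −0.14 and −0.30, neither a DEM. The 28 calls of the fibrosis and neighbour lists became 16 with pooled controls, 10 with adjusted p-values and 26 to 31 when each library was left out. The mean effect over doses, with 1 guide strand past the threshold, gave 2 with TMM, DESeq2's size factors, library size alone or no filter, and 0 to 2 when each library was left out. The 8 dose differences became 4 with TMM, 4 with DESeq2's size factors, 1 with library size alone, 1 with no filter and 3 with at least 5 RPM in every library, and between 5, without replicate 32 of middle dose 14-d, and 16, without control 3-d replicate 1, when each library was left out. The 2 time differences became 5 with TMM, 4 with DESeq2's size factors, 4 with library size alone and 0 with no filter (7 at an unadjusted p below 0.05), and 0 to 6 when each library was left out. The 4 control differences gave 1 to 4 when each library was left out. The cause of these changes was not tested.

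Among single values, the 3-d mean effect of miR-181a-5p was −1.23 to 0.14 and the 28-d against 3-d control difference of miR-181a-2-3p −1.36 to 0.00898 when each library was left out, both above 0 without control 3-d replicate 1. None of the other called values changed sign. Calls held best for miR-181c-5p at low dose 7-d, which kept its call in 11 of 12 alternatives and without each of the 6 libraries of its comparison, and for miR-181a-1-3p at low dose 14-d, in 10 of 12 and without each of 6. Of the same 12 alternatives, miR-181a-2-3p at middle dose 28-d kept its call in 10, miR-181d-5p at low dose 7-d in 9, miR-181a-5p at low dose 7-d in 6, miR-181c-5p at low dose 14-d in 4 and miR-181c-3p at low dose 14-d in 3. No paired analysis was possible because the running numbers are unique to each rat and no groups share them. Depth limits miR-181d-5p in control 3-d replicate 1, with 6 reads, and the 3 passenger strands that were not tested.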
